A study of Mus musculus with 12 samples.

Results

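The genes encoding the proteins of the cytosolic ribosome were followed across 4 genotypes of mouse pancreatic tumour cells. Members were taken by symbol: Rpl or Rps followed by a number, with a letter or a further number where the symbol has them, Rplp0 to Rplp2, and Rpsa. The rule took 99 of the 24493 symbols in the table. Of these, 77 encode a core ribosomal protein, 46 of the large subunit and 31 of the small subunit. Another 11 are paralogs or copies of core genes, and the remaining 11 only carry the name of a ribosomal protein, being the S6 kinase genes and Rps19bp1. Values of Fau and Rack1, ribosomal components whose names the rule does not take, are given beside the members.

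The tumour cells, named 6649c2, were grown under the skin of C57BL/6 mice and sorted from the tumours, and RNA sequencing libraries were made from them. The groups were EgfrKO (knockout of the epidermal growth factor receptor), Klf5KO (knockout of a zinc finger transcription factor of epithelia), Smad4KO (knockout of the shared mediator of TGF-beta signalling) and WT, with 3 libraries each. All groups share the cell name, the strain and the subcutaneous site, and neither the clonal or pooled nature of a knockout nor the sort gate is given by the labels. Whether replicates are separate animals or tumours is not labelled either, so the spread behind each p-value may be only technical. Smad4 averaged 30.7 ± 2.39 TPM in Smad4KO libraries and 75.5 ± 4.45 TPM in WT libraries (SD, n = 3 each; TPM expresses each gene as a share of the library's transcripts, after allowing for their length). Egfr averaged 4.29 ± 0.759 TPM in EgfrKO libraries and 13.1 ± 0.850 TPM in WT libraries (SD, n = 3 each). Klf5 averaged 93.8 ± 6.35 TPM in libraries labelled Klf5KO and 112 ± 16.8 TPM in WT libraries (SD, n = 3 each), so its level does not check the label, and these libraries are called Klf5KO-labelled. The depth of the libraries is unknown because TPM does not keep it.

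The ribosome translates all cellular mRNA, and its large and small subunits are each built from ribosomal RNA and a nearly fixed set of proteins, so the proteins are needed in matched amounts. Their mRNAs are among the most abundant of dividing cells and belong to the terminal oligopyrimidine (TOP) class, which starts with a C followed by a run of pyrimidines. Translation of that class is promoted by the kinase complex mTORC1 and restrained by the RNA-binding protein LARP1, while MYC drives transcription of ribosome genes.

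The start regions of 7 genes that the results turn on are shown as examples of genes that fell far (Rpl37a, Rpl38, Rpl35), hardly (Rplp0) or differently by genotype (Rps12, Rps6, Rpl22l1). Each line gives the 50 bases before and the first 20 bases from the annotated start in RefSeq (GRCm38.p6), with a pyrimidine tract within 20 bases of the start in capitals.
Rpl37a (chr1:72711210-72711279, plus strand): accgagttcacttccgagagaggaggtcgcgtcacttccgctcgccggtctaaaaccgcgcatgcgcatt
Rpl38 (chr11:114668530-114668599, plus strand): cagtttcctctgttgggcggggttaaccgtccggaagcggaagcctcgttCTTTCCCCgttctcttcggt
Rpl35 (chr2:39005112-39005181, minus strand): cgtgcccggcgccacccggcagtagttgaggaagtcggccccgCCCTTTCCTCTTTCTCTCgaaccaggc
Rplp0 (chr5:115559417-115559486, plus strand): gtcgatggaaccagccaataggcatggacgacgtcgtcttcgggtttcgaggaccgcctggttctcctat
Rps12 (chr10:23787190-23787259, minus strand): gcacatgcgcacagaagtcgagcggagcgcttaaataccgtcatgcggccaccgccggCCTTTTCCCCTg
Rps6 (chr4:86857348-86857417, minus strand): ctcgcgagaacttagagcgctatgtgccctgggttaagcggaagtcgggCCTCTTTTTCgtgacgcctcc
Rpl22l1 (chr3:28805458-28805527, plus strand): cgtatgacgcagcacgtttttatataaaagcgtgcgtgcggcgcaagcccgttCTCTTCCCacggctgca

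The tract searched for was a C followed by at least 6 further C or T bases on the transcribed strand, and RefSeq start regions were found for 57 of the 77 core genes. It lay within 20 bases of the start in 32 of those 57 (56.1%), against 21.4% of all 27025 symbols with a start region and 14 of 69 mitochondrial ribosomal protein genes (20.3%). On the opposite strand it was found in 7 of the 57 core genes (12.3%) and in 23.4% of all symbols. Rpl38, Rpl35, Rps12, Rps6 and the paralog Rpl22l1 hold a tract in the stretch shown, while Rpl37a and Rplp0 have no such letters there. The motif CGGAAGT, searched on both strands of the 300 bases around the start, was present in 20 of the 57 core genes (35.1%), in 17 of 69 mitochondrial ribosomal protein genes (24.6%) and in 7.20% of all symbols. Core genes with the tract had a median log2 fold change of -0.65 in Klf5KO-labelled over WT libraries (32 genes), and those without it had -0.55 (25 genes), with ranges that overlap. These matches describe letters in a window and are no test of a factor or of a true start.

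Core ribosomal protein mRNAs took up less of the transcript pool in Klf5KO-labelled tumour cells than in any other group. Their share of all TPM was 13.3% ± 0.727 in Klf5KO-labelled libraries, 19.2% ± 0.340 in EgfrKO libraries, 18.5% ± 0.797 in Smad4KO libraries and 19.9% ± 0.209 in WT libraries (SD, n = 3 each). The highest Klf5KO-labelled library, at 14.0%, lay below the lowest library of the rest, a Smad4KO library at 17.6%. Large subunit genes made up 7.73% ± 0.419 in Klf5KO-labelled and 11.6% ± 0.132 in WT libraries, and small subunit genes 5.56% ± 0.310 in Klf5KO-labelled and 8.29% ± 0.0881 in WT libraries (SD, n = 3 each). The ratio of large to small subunit TPM ranged only between 1.36 and 1.42 over the 12 libraries. In sorted bulk cells, fewer cells of a type and less RNA per cell cannot be told apart.

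**Figure D1:**
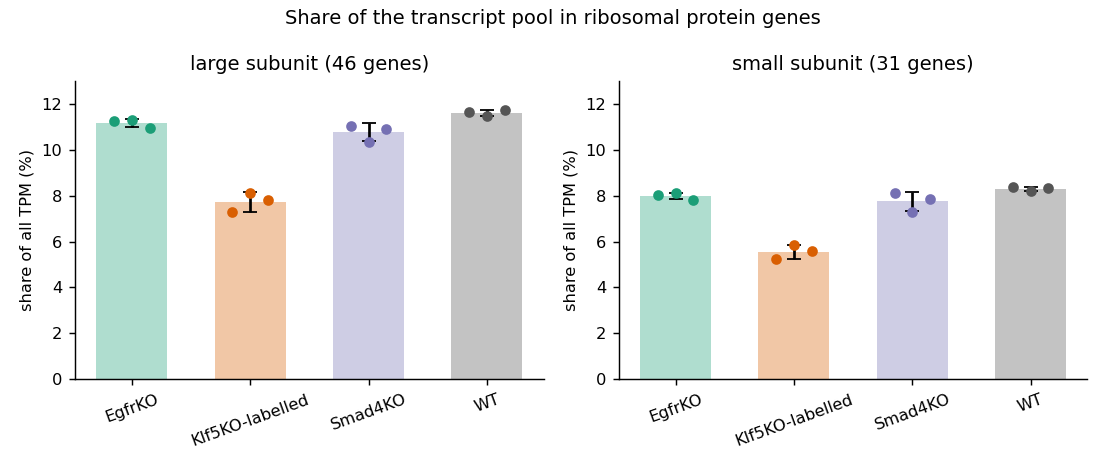
Share of all TPM (%) in the 46 large subunit genes (left) and the 31 small subunit genes (right) by genotype. Points are libraries, bars are means and error bars are SD (n = 3). The 3 Klf5KO-labelled libraries lie below all others in both subunits.

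All 77 core genes passed the filter on low values, and each was tested with limma on log2(TPM + 1) together with 13662 genes, with Benjamini-Hochberg adjustment and a threshold of 0.05. In Klf5KO-labelled over WT libraries 74 of 77 core genes were lower, where 11.1% of all tested genes were, and 0 were higher by limma, also at an unadjusted p under 0.05, where 55.2% of all tested genes were. Their median log2 fold change was -0.57, a ratio of 0.674, beside 0.31 for all tested genes. The large subunit median was -0.59, with 44 of 46 genes lower, and the small subunit median was -0.57, with 30 of 31 lower. With libraries scaled by the median of ratios, which moves the median of all genes to -0.01, 75 core genes were lower (background 27.5%) and 0 higher by limma (background 24.6%), and their median was -0.93.

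In EgfrKO over WT libraries 23 of 77 core genes were lower (background 12%) and 6 higher (background 31.3%), with a median of -0.08 beside 0.14 for all tested genes. The lower count was 15 without EgfrKO replicate 2, without EgfrKO replicate 3 or without WT replicate 3, and the higher count was 3 without EgfrKO replicate 2, WT replicate 1 or WT replicate 2. In Smad4KO over WT libraries 28 were lower (background 17.4%) and 4 higher (background 32.2%), with a median of -0.09 beside 0.10 for all tested genes. With median-of-ratios scaling 38 core genes were lower in EgfrKO and 35 in Smad4KO libraries, none was higher in either, and the medians were -0.23 and -0.20. With that scaling 22.2% of all tested genes were lower and 18% higher in EgfrKO libraries, and 24.7% lower and 25.1% higher in Smad4KO libraries. The 3 comparisons share the WT libraries.

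Between knockouts, 73 core genes were higher in EgfrKO than in Klf5KO-labelled libraries (background 14.7%) and 0 lower by limma, also at an unadjusted p under 0.05 (background 40.5%), with a median of 0.53. Klf5KO-labelled libraries had 70 core genes lower than Smad4KO libraries (background 18.3%) and 0 higher by limma (background 45.5%), or 1 at an unadjusted p under 0.05, with a median of -0.49. EgfrKO over Smad4KO libraries had 15 core genes higher (background 18.7%) and 7 lower (background 14.5%), with a median of 0.03, and the higher count is near the background. The higher count was 9 without EgfrKO replicate 1, EgfrKO replicate 2 or Smad4KO replicate 2. The lower count was 3 without EgfrKO replicate 2 or EgfrKO replicate 3 and 4 without Smad4KO replicate 1 or Smad4KO replicate 2. Rpl41 (0.47 ± 0.07 SE) and Rps12 (0.43 ± 0.06 SE) were the members furthest up in EgfrKO over Smad4KO libraries among those past the threshold.

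**Figure D2:**
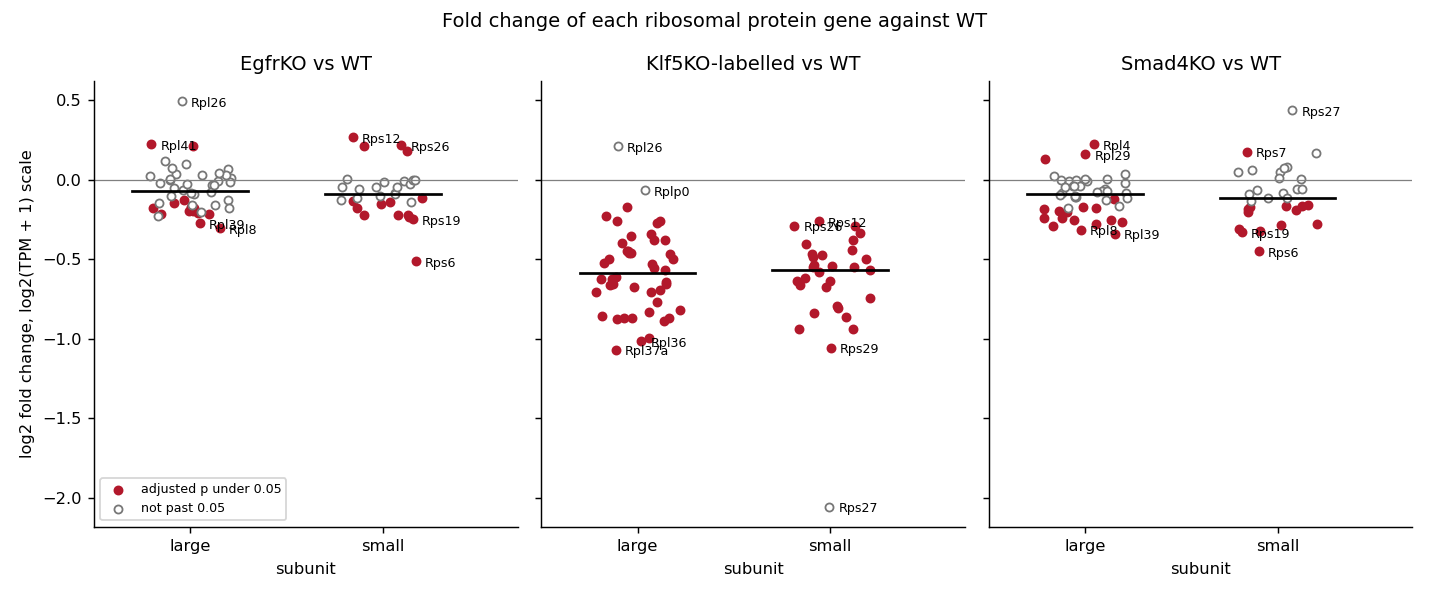
Log2 fold change of each core gene against WT, on the log2(TPM + 1) scale, by subunit and genotype. Filled points passed an adjusted p of 0.05 in limma and lines are medians. In the Klf5KO-labelled panel 74 of 77 points are filled and below 0.

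The 3 most abundant genes of each subunit all fell in Klf5KO-labelled libraries, but to different extents: Rplp1 by 0.66, Rpl41 by 0.26 (but 0.18 higher with the coding length trend of other genes subtracted) and Rpl23a by 0.46 in the large subunit, Rps18 by 0.75, Rps12 by 0.26 and Rps14 by 0.62 in the small subunit. The subtraction for Rpl41, with 75 coding bases, rests on the short end of that trend. Against the mean of the core genes, Rpl41, Rps12 and Rpl23a rose from WT to Klf5KO-labelled libraries by 0.34, 0.34 and 0.14, as described further on. Rplp1, an acidic protein of the stalk that recruits translation factors, had 4557, 5082 and 5102 TPM in Klf5KO-labelled libraries, against 7904, 7804 and 7528 TPM in WT libraries. The groups do not overlap, and Rplp1 fell by 0.66 on the log2 scale (SE 0.07, limma adjusted p = 7.8e-06). Rps18, of the head of the small subunit, had 3439, 3921 and 3639 TPM in Klf5KO-labelled libraries, against 6204, 6108 and 6102 TPM in WT libraries. Neither gene passed the threshold in EgfrKO or Smad4KO libraries, where Rplp1 had log2 fold changes of 0.04 and 0.03 and Rps18 of 0.00 and -0.07. Rpl5 and Rpl11, which together with 5S RNA bind the p53 inhibitor MDM2 when ribosome assembly fails, fell by 0.38 and 0.46 in Klf5KO-labelled libraries. In Smad4KO libraries they fell by 0.18 and 0.19, and in EgfrKO libraries Rpl5 fell by 0.20 while Rpl11 had a log2 fold change of -0.02 that did not pass. Rpl10, which joins the large subunit late, fell by 0.50 in Klf5KO-labelled libraries and by 0.29 in Smad4KO libraries. Its fall of 0.17 in EgfrKO libraries (limma adjusted p = 0.0446) did not pass with no filter. Rpsa, also known as the laminin receptor, fell by 0.33 in Klf5KO-labelled libraries and did not pass in the others (-0.05 in EgfrKO and 0.06 in Smad4KO libraries). Rpl13a, known in human cells for a role in silencing inflammatory transcripts, fell by 0.69 in Klf5KO-labelled libraries, and Rps3, at the mRNA entry site, fell by 0.55. Rpl13a also fell by 0.13 in EgfrKO and by 0.12 in Smad4KO libraries, neither past the threshold with no filter. Rps3 fell by 0.23 in EgfrKO libraries (limma adjusted p = 0.00068). It averaged 845 ± 14.2 TPM in Smad4KO and 960 ± 20.6 TPM in WT libraries (SD, n = 3 each).

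Some members stood apart from the common movement. The common level was the mean log2(TPM + 1) of the core genes in a library, and each member's departure from it was tested in the same model. Above, below and off the common level refer to how this departure changed from WT libraries. They do not give a member's own place in a library. Rpl8, for example, was 0.36 to 0.43 over the mean in Smad4KO libraries and 0.59 to 0.64 over it in WT libraries. The members off that level numbered 50 in Klf5KO-labelled libraries (28 above, 22 below), 23 in EgfrKO libraries (10 above, 13 below) and 27 in Smad4KO libraries (11 above, 16 below), each against WT. Over all tested genes 89.6%, 45.0% and 51.1% were off it in Klf5KO-labelled, EgfrKO and Smad4KO libraries. Split by direction, the background above that level was 86.8%, 36.5% and 39.1% in the same order of genotypes, and below it 2.81%, 8.46% and 12%. The level is the mean of the members themselves, so their departures balance out in each library by construction. Those of other genes need not, so these shares are no like background for the members. Without a trend in the spread 15 members were off it in EgfrKO and 16 in Smad4KO libraries.

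Rplp0, which anchors the stalk, was an exception in Klf5KO-labelled cells, as was Rpl26, described further on. It had 3089, 2882 and 3016 TPM in Klf5KO-labelled libraries, against 3248, 3062 and 3097 TPM in WT libraries. These values overlap, and the log2 fold change of -0.07 (SE 0.04) gave a limma adjusted p of 0.211. Against the common level Rplp0 rose by 0.53 (limma adjusted p = 2.06e-06). Its partners in the stalk did not do the same, since Rplp1 fell by 0.66 and Rplp2 by 0.77. Rpl19 had 2354, 2417 and 2334 TPM in Klf5KO-labelled libraries, against 2639, 2685 and 2671 TPM in WT libraries. It fell by 0.17 (SE 0.04, adjusted p = 0.00513), less than most members, and rose by 0.43 against the common level. Rpl6, Rpl4 and Rps12 fell by 0.23, 0.26 and 0.26 and rose by 0.37, 0.34 and 0.34 against the common level. With the coding length trend of other genes subtracted, the departure of Rpl4 was 0.10 and no longer passed (adjusted p = 0.0525).

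At the other end in Klf5KO-labelled cells were Rpl37a, Rps29 and Rpl36. Rpl37a had 714, 906 and 834 TPM in Klf5KO-labelled libraries, against 1677, 1763 and 1693 TPM in WT libraries. It fell by 1.07 (SE 0.08, limma adjusted p = 1.22e-06), a ratio of means of 0.478. Against the common level it fell by 0.47 (log2 departure of -0.47, limma adjusted p = 1.37e-05). Rps29, which binds zinc, had 973, 1336 and 1287 TPM in Klf5KO-labelled libraries, against 2602, 2426 and 2394 TPM in WT libraries, and fell by 1.06 (SE 0.16). Its departure of -0.46 was -0.17 and did not pass (adjusted p = 0.145) with the coding length trend subtracted. Rpl36 had 1826, 2377 and 2126 TPM in Klf5KO-labelled libraries, against 4201, 4221 and 4305 TPM in WT libraries, and fell by 1.02. Rpl38, needed for translation of Hox mRNAs in mouse embryos, fell by 0.88, and Rps19, the gene most often mutated in human Diamond-Blackfan anaemia, fell by 0.94. In all 5 of these genes replicate 1 was the lowest Klf5KO-labelled library.

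In EgfrKO libraries Rps6 and Rpl8 fell furthest against the common level. Rps12, Rpl19 and Rpl41, which rose against it in Klf5KO-labelled libraries too, rose against it here. Rps6, the small subunit protein that S6 kinases phosphorylate, had 1666, 1604 and 1611 TPM in EgfrKO libraries, against 2381, 2219 and 2368 TPM in WT libraries. It fell by 0.51 there (SE 0.05, limma adjusted p = 2.68e-05) and departed by -0.44 from the common level (adjusted p = 1.2e-05), the furthest below of the core genes tested. Rpl8, a protein near the peptidyl transferase centre, had 2522, 2514 and 2403 TPM in EgfrKO libraries, against 3126, 2970 and 3099 TPM in WT libraries, and fell by 0.31. Rps12 had 5529, 5612 and 5374 TPM in EgfrKO libraries, against 4517, 4566 and 4661 TPM in WT libraries. Its rise of 0.26 (SE 0.06, adjusted p = 0.0036) did not pass with median-of-ratios scaling, at 0.11, while its departure from the common level was 0.33. Rpl19 rose by 0.21 and Rpl41, whose product is the shortest of the ribosome, by 0.22, and both also did not pass with that scaling (0.06 and 0.07). Rpl41 further did not pass without EgfrKO replicate 2 (0.20), WT replicate 1 (0.22) or WT replicate 2 (0.20).

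In Smad4KO libraries Rps6 and Rpl8 were also lower than in WT libraries, with which all 3 genotypes were compared. Rpl4, Rps7 and Rpl29 rose against the common level. Rps6 had 1720, 1647 and 1733 TPM in Smad4KO libraries, against 2381, 2219 and 2368 TPM in WT libraries, a fall of 0.45 (SE 0.05, limma adjusted p = 3.75e-05). Rpl8 fell by 0.32 and Rps19 by 0.33, and their log2 departures from the common level changed by -0.22 and -0.23 from WT libraries. Rpl4, which lines the exit tunnel for the new protein chain, had 2058, 2228 and 2196 TPM in Smad4KO libraries, against 1835, 1865 and 1857 TPM in WT libraries. It rose by 0.22 (SE 0.04, adjusted p = 0.00153), or 0.11 and not past the threshold with median-of-ratios scaling. Against the common level it rose by 0.32. Rps7, a small subunit protein, had 2151, 2134 and 2158 TPM in Smad4KO libraries, against 1905, 1889 and 1912 TPM in WT libraries, and Rpl29 had 1568, 1603 and 1636 TPM, against 1445, 1431 and 1429 TPM in WT libraries. These rose by 0.18 and 0.16, again not past the threshold with that scaling (0.07 and 0.05). In Klf5KO-labelled libraries Rps6 fell by 0.66 but departed from the common level by only -0.06 (adjusted p = 0.216), where the median of the core genes was -0.57.

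**Figure D3:**
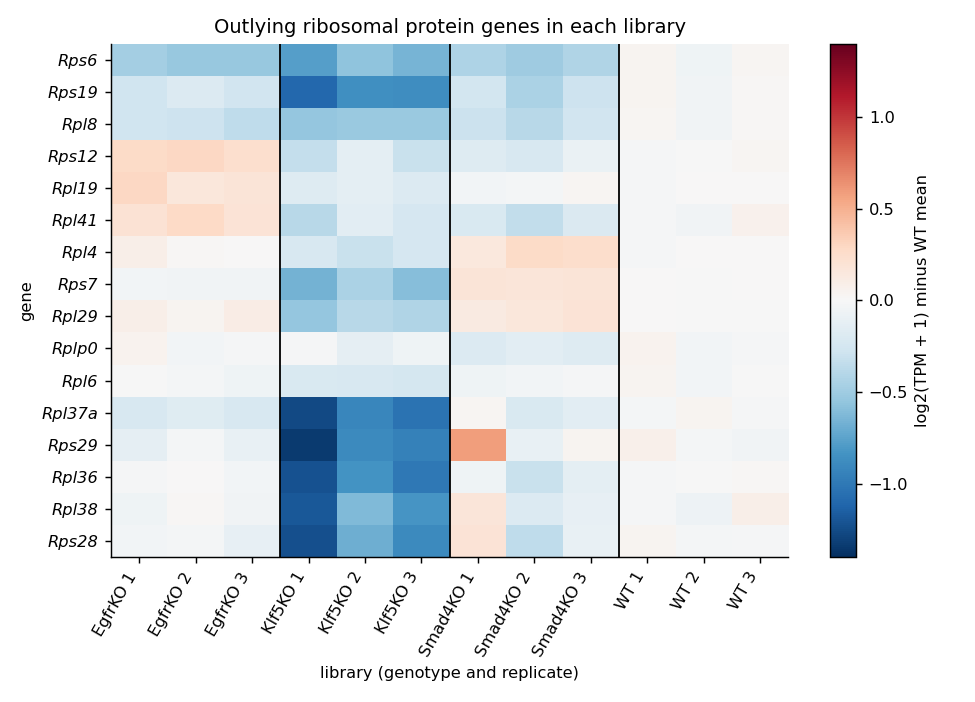
Log2(TPM + 1) minus the WT mean for 16 outlying core genes (rows) in each of the 12 libraries (columns, grouped by genotype). Blue is lower and red higher than WT. Rps6 is blue in all 9 knockout libraries, Rplp0 is nearly white in the Klf5KO-labelled libraries, and the lowest rows are darkest in Klf5KO-labelled replicate 1.

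The size of the fall in Klf5KO-labelled libraries went with the coding length of the gene. Core genes with under 300 coding bases had a median log2 fold change of -0.88 (9 genes), those of 300 to 499 bases -0.64 (38 genes), of 500 to 749 bases -0.56 (18 genes), of 750 to 999 bases -0.36 (10 genes), and the 2 genes of 1000 bases or more -0.27. Across the 77 core genes, which share libraries and are not independent, Pearson's r between the fold change and the coding length was 0.46 and Spearman's rho 0.55. Genes outside the rule showed a slope of the same sign, with medians of -0.04 under 300 bases (284 genes), 0.04 at 300 to 499 bases, 0.17 at 500 to 749 bases and 0.54 at 3000 bases or more. Core genes lay below them at equal length, by a median of -0.64 beside 0.04 in the bin of 300 to 499 bases. With the length trend of other genes subtracted from each library, 74 core genes were lower and 1 higher in Klf5KO-labelled libraries (Rpl41, 0.18, limma adjusted p = 0.0203), with a median of -0.67. Short against long members differed most in Klf5KO-labelled replicate 1, where the median of members under 500 bases minus that of longer members was -0.24, beside -0.18 and -0.18 in replicates 2 and 3. The same difference over genes outside the rule was larger, at -0.45, -0.24 and -0.29 in these libraries. In EgfrKO and Smad4KO libraries Pearson's r with length was -0.12 and -0.02 over the same 77 genes.

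**Figure D4:**
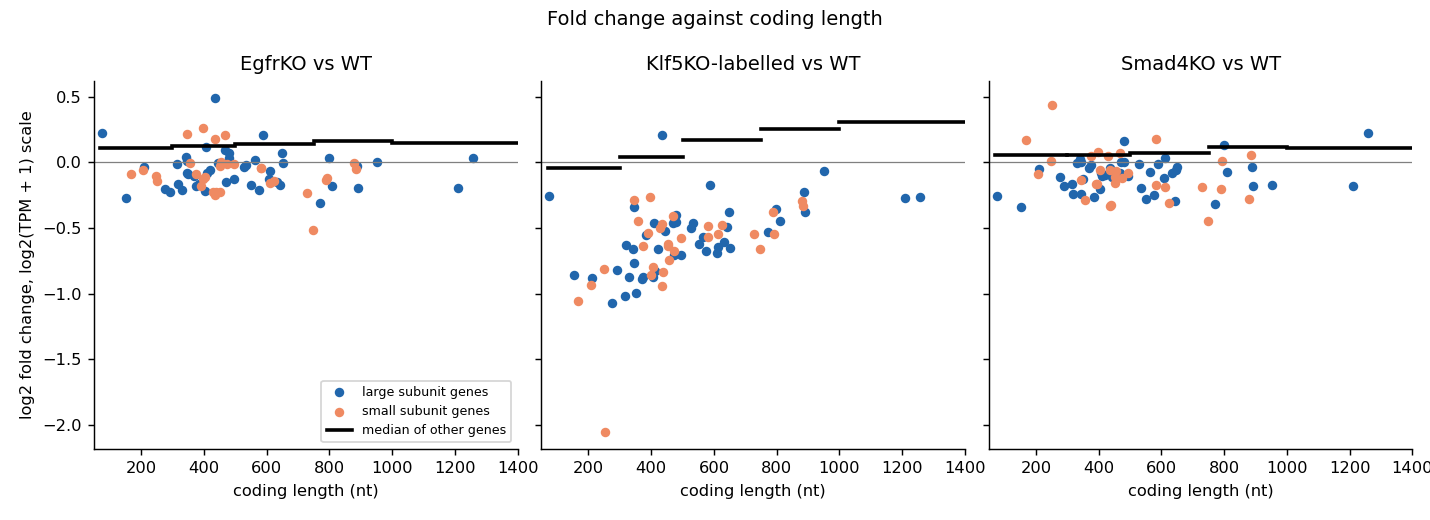
Log2 fold change of core genes against WT (points, log2(TPM + 1) scale) by coding length in nucleotides, with black lines for the median of other tested genes in each length bin. The points of the Klf5KO-labelled panel rise with length (r = 0.46 across 77 genes) and lie below the lines except for Rpl26.

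Of the 11 paralogs and copies in the table, 7 passed the filter on low values. Rpl22l1, a paralog of the RNA-binding protein gene Rpl22 that Rpl22 represses in mice, differed in all genotypes. It had 318, 333 and 295 TPM in EgfrKO libraries, 114, 139 and 146 TPM in Klf5KO-labelled libraries and 596, 486 and 546 TPM in Smad4KO libraries, against 404, 434 and 406 TPM in WT libraries. None of these groups overlaps another, and the log2 fold changes over WT were -0.39, -1.64 and 0.38 (SE 0.09 each, limma adjusted p = 0.00565, 1.61e-07 and 0.00513). With median-of-ratios scaling the rise in Smad4KO libraries was 0.28 and missed the threshold (adjusted p = 0.055). Rpl22 itself fell in Klf5KO-labelled (by 0.56) and Smad4KO libraries (by 0.27), and its -0.16 in EgfrKO libraries missed the threshold.

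Rpl7l1, a paralog of Rpl7, went against the core genes. It had 77.7, 75 and 74.5 TPM in EgfrKO libraries, 92.3, 83.7 and 87.8 TPM in Klf5KO-labelled libraries and 67.2, 70.8 and 69.9 TPM in Smad4KO libraries, against 57.0, 60.5 and 58.4 TPM in WT libraries. It was higher in all 3 (0.36, 0.58 and 0.24, SE 0.05 each), whereas Rpl7 fell by 0.45 in Klf5KO-labelled libraries. Rpl36al, whose coding sequence matches that of Rpl36a at 87.7% of positions, rose by 0.34 in Smad4KO libraries and fell by 0.35 in Klf5KO-labelled libraries. In EgfrKO libraries it rose by 0.25, or 0.10 and not past the threshold with median-of-ratios scaling. Rpl36a went the other way, by -0.24 in Smad4KO libraries (not past the threshold with no filter) and by -0.16 in EgfrKO libraries, which did not pass. The sum of the pair was 0.976, 0.688 and 0.962 times that of WT libraries in EgfrKO, Klf5KO-labelled and Smad4KO libraries. The division of reads between Rpl36a and Rpl36al was not tested. The paralogs Rpl3l, Rpl10l, Rpl39l and Rpl32l did not pass the filter and had under 2 TPM in every library.

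**Figure D5:**
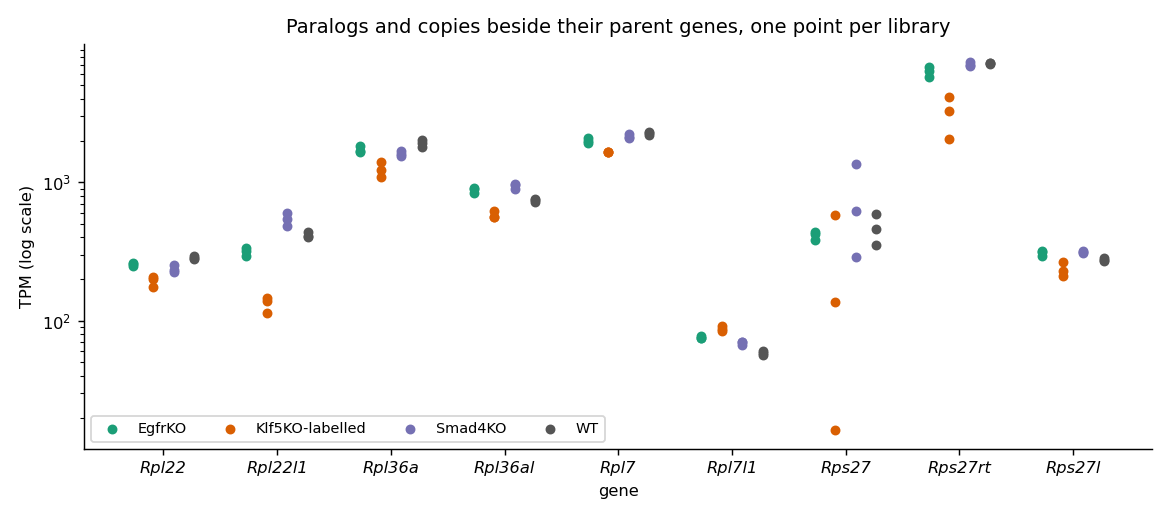
TPM on a log scale of paralogs and copies beside their parent genes, with a point for each library, ordered by genotype within a gene. Rpl22l1 is lowest in Klf5KO-labelled and highest in Smad4KO libraries, and Rps27 spreads between 16.2 and 579 TPM within the Klf5KO-labelled libraries.

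Values of Rps27 cannot be read alone, because Rps27rt is annotated with the same coding sequence of 252 bases, identical at all 252 positions. The first 90 coding bases are shown to make this visible (GENCODE transcripts, GRCm38, with the position of the gene), and in Rps27l, the paralog that p53 activates, the bases that differ from Rps27 are in capitals.
Rps27 (chr3:90212522-90213651, minus strand): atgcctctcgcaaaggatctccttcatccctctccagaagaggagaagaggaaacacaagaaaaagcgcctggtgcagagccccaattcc
Rps27rt (chr9:114982366-114982739, minus strand): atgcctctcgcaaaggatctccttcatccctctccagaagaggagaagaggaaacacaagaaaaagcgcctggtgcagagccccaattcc
Rps27l (chr9:66946086-66949516, plus strand): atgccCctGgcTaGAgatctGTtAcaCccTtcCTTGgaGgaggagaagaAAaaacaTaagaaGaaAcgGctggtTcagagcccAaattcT

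Rps27l differs from Rps27 at 24 of these 90 bases and matches it at 76.2% of the coding sequence. Rps27 had 579, 16.2 and 136 TPM in Klf5KO-labelled libraries, against 593, 355 and 462 TPM in WT libraries, and the fold change of -2.05 (SE 0.96) missed the threshold (limma adjusted p = 0.0789). Rps27rt took most of the pair's TPM, with 2047, 4113 and 3289 TPM in Klf5KO-labelled libraries, against 7248, 7206 and 7161 TPM in WT libraries. The sum of the pair was 3394 ± 752 TPM in Klf5KO-labelled libraries and 7675 ± 147 TPM in WT libraries (SD, n = 3 each), a ratio of 0.442. In EgfrKO and Smad4KO libraries the sum was 0.872 and 1.02 times that of WT libraries. The pseudogene Rpl34-ps1 had 2282 to 4248 TPM, beside 145 to 376 TPM for Rpl34, which made up 5.33% to 8.34% of their sum. The sum of both in Klf5KO-labelled libraries was 0.601 times that of WT libraries, and the division of reads between them was not tested. Rpl26, the other core gene that was not lower in Klf5KO-labelled libraries, had 227, 109 and 161 TPM there, against 128, 136 and 148 TPM in WT libraries, and was among the least abundant members. Of the core genes past the threshold it rose furthest against the common level there, though with a wide spread. Its log2 distance from that level was -2.48, -3.62 and -3.04 in Klf5KO-labelled libraries, against -3.97, -3.84 and -3.76 in WT libraries.

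Of the 11 genes only named for a ribosomal protein, 9 were tested, and they did not move together. In Klf5KO-labelled libraries 4 were higher and 2 lower (background 55.2% and 11.1%), or 1 and 3 with median-of-ratios scaling (background 24.6% and 27.5%). That scaling gave 2 higher and 4 lower in EgfrKO (background 18% and 22.2%) and 1 and 4 in Smad4KO libraries (background 25.1% and 24.7%). Rps19bp1 was lower in Klf5KO-labelled (-0.23) and Smad4KO libraries (-0.24), but neither call held without each library in turn. Rps6ka1, a kinase of the RSK family downstream of ERK, had 39.2, 41.2 and 36.4 TPM in EgfrKO libraries, 22.4, 20.7 and 20.4 TPM in Klf5KO-labelled libraries and 47.8, 53.3 and 47.9 TPM in Smad4KO libraries, against 26.6, 26.3 and 22 TPM in WT libraries. It rose by 0.62 in EgfrKO and by 0.97 in Smad4KO libraries (SE 0.08 each, limma adjusted p = 0.000125 and 2.11e-06). Its fall of 0.22 in Klf5KO-labelled libraries did not pass without Klf5KO replicate 2 (-0.21), Klf5KO replicate 3 (-0.20), WT replicate 1 (-0.17) or WT replicate 2 (-0.18). Rps6ka2 fell by 1.18 in Smad4KO libraries, with 1.14, 0.937 and 1.04 TPM there, against 2.66, 5.11 and 3.37 TPM in WT libraries. Rps6kb1, the S6 kinase that phosphorylates Rps6 under mTORC1, rose by 0.38 in EgfrKO and by 0.48 in Klf5KO-labelled libraries, the second of which was 0.14 and missed the threshold with median-of-ratios scaling.

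Fau and Rack1 were also lower in Klf5KO-labelled cells. Fau, which encodes a small subunit protein fused to a ubiquitin-like one, averaged 2514 ± 199 TPM in Klf5KO-labelled and 4247 ± 215 TPM in WT libraries (SD, n = 3 each) and fell by 0.76. Rack1, a signalling scaffold on the small subunit, fell by 0.32. In Smad4KO libraries Fau fell by 0.36 and Rack1 by 0.14, and in EgfrKO libraries Fau fell by 0.25. The fall of Fau in EgfrKO libraries did not pass without EgfrKO replicate 1 (-0.22) or WT replicate 3 (-0.20).

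Translation factors and other mRNAs of the TOP class were mixed. Of 17 tested, 8 were lower and 5 higher in Klf5KO-labelled libraries, where 11.1% and 55.2% of all tested genes were, with a median of -0.05. In the other comparisons 7 were lower in EgfrKO and 7 in Smad4KO libraries (background 12% and 17.4%), with 1 and 0 higher by limma (1 and 0 at an unadjusted p under 0.05, background 31.3% and 32.2%). Tpt1, a tumour protein with a TOP mRNA, fell by 0.86 in Klf5KO-labelled libraries and by 0.35 in EgfrKO libraries. Eef1b2 of the elongation factor complex fell by 0.43 in Klf5KO-labelled libraries. Eef1a1, the elongation factor that delivers tRNA, had a log2 fold change there of -0.05 that did not pass. Nap1l1, a histone chaperone, rose by 0.58. With median-of-ratios scaling 13 of the 17 were lower and 1 higher in Klf5KO-labelled libraries (background 27.5% and 24.6%). The same counts were found in EgfrKO libraries (background 22.2% and 18%). In Smad4KO libraries 14 were lower and 0 higher by limma with that scaling (background 24.7% and 25.1%).

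Mitochondrial ribosomal protein genes had medians above 0 in EgfrKO and Smad4KO libraries, where those of the core genes were slightly below it. There 48 and 45 of the 77 core genes were neither higher nor lower. Of 78 tested, 56 were higher and 0 lower by limma in EgfrKO libraries (0 at an unadjusted p under 0.05), and 55 were higher and 1 lower in Smad4KO libraries, with medians of 0.30 and 0.29. Over all tested genes 31.3% were higher and 12% lower in EgfrKO libraries, and 32.2% higher and 17.4% lower in Smad4KO libraries. With median-of-ratios scaling 23 mitochondrial ribosomal protein genes were higher and 6 lower in EgfrKO libraries (background 18% and 22.2%). With it 29 were higher and 1 lower in Smad4KO libraries (background 25.1% and 24.7%). In Klf5KO-labelled libraries 22 were higher and 8 lower with a median of 0.09, but 0 higher and 44 lower with median-of-ratios scaling. The share higher was below the 55.2% of all tested genes and the share lower near their 11.1%, and with that scaling the background was 24.6% higher and 27.5% lower. Of 25 genes of ribosome assembly 12 were higher and 2 lower in Klf5KO-labelled libraries, or 5 higher and 14 lower with median-of-ratios scaling, and the unscaled counts are near those backgrounds. Of 11 genes that control ribosome synthesis, 7 were higher and 3 lower in Klf5KO-labelled libraries, or 3 higher and 4 lower with median-of-ratios scaling. Myc fell by 0.45 and Mycn by 1.13 in Klf5KO-labelled libraries, where Mtor (0.80), Larp1 (0.59) and Eif4ebp2 (1.02), a repressor of cap-dependent translation, were higher. Mycn rose by 1.13 in Smad4KO libraries, with 20.6 ± 2.62 TPM there and 8.85 ± 0.640 TPM in WT libraries (SD, n = 3 each). Of 10 tested p53 targets, 5 were higher and 2 lower in Klf5KO-labelled libraries (background 55.2% and 11.1%), with a median of 0.25. The higher count is near the background. With median-of-ratios scaling 2 of these targets were higher and 4 lower (background 24.6% and 27.5%), with a median of -0.08. Cdkn1a, the cell cycle inhibitor, fell by 1.43 and was the lowest of them, while Ccng1, cyclin G1, rose by 0.75.

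Markers of other cells also differed between groups. The 10 fibroblast markers summed to 298 to 621 TPM in Klf5KO-labelled libraries, against 56.6 to 139 TPM in WT libraries. All 9 tested were higher there (background 55.2% of all tested genes), or 6 of 9 with median-of-ratios scaling (background 24.6%). No fibroblast marker was at 0 throughout a group. The 9 epithelial tumour markers summed to 4753 to 5300 TPM in Klf5KO-labelled, 7872 to 8438 TPM in EgfrKO and 8341 to 9343 TPM in Smad4KO libraries, against 5857 to 6315 TPM in WT libraries. They did not all move together. Of 8 tested, 1 was higher and 6 lower in Klf5KO-labelled libraries (background 55.2% and 11.1%). In EgfrKO libraries 5 were higher and 2 lower (background 31.3% and 12%), with log2 fold changes from -2.65 to 1.35. In Smad4KO libraries 7 were higher and 1 lower (background 32.2% and 17.4%), from -0.97 to 1.49. Leukocyte markers were higher in 6 of 7 tested genes in Klf5KO-labelled libraries, or 1 of 7 with median-of-ratios scaling. Lymphocyte markers were higher there in 5 of 8 and endothelial markers in 2 of 2, with the same counts under that scaling. The backgrounds are again 55.2% and, with scaling, 24.6%, and 5 of 8 is near the first. Leukocyte markers summed to 261 to 426 TPM in Klf5KO-labelled, 285 to 292 TPM in EgfrKO and 79.8 to 158 TPM in Smad4KO libraries, against 170 to 257 TPM in WT libraries. Lymphocyte markers summed to 12.5 to 19.5 TPM and endothelial markers to 12.4 to 16.2 TPM in Klf5KO-labelled libraries, against 3.98 to 7.24 TPM and 2.47 to 3.30 TPM in WT libraries. The rise was not particular to this group. In EgfrKO libraries the sums were 11.4 to 13.4 TPM and 6.75 to 8.90 TPM, with 5 of 8 and 2 of 2 higher (background 31.3%). In Smad4KO libraries they were 9.45 to 11.1 TPM and 2.19 to 3.31 TPM, with 2 of 8 and 0 of 2 higher by limma (background 32.2%). In Smad4KO libraries 3 of 7 leukocyte and 3 of 10 macrophage markers were lower (background 17.4%), the macrophage markers summing to 186 to 815 TPM. The 10 macrophage markers summed to 1060 to 1690 TPM in Klf5KO-labelled libraries, against 747 to 1481 TPM in WT libraries, with 0 of 10 past the threshold by limma, and 0 at an unadjusted p under 0.05. The part of these cells in the ribosomal protein values was not tested.

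Over the 12 libraries the core genes were most alike to Rpl13a, whose log2(TPM + 1) had a Pearson's r of 0.995 with the mean of the other core genes, and least to Rpl26 (-0.15), Rplp0 (0.11) and Rps27 (0.53). Of 10245 genes outside the rule, Ntpcr (0.985), Urah (0.978) and Shf (0.976) followed the mean of core genes most closely. These values describe the same 12 libraries, which fall into 4 genotypes.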

How the data were processed

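RNA sequencing covered 12 libraries, for which the authors deposited a table of TPM per gene symbol. The submitters' processing notes name Salmon and mm10. Salmon's version, the annotation and the summing of transcripts into genes were not given in the sources used here. TPM is a share of a library and keeps no depth, so no counting interval is given.

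Values were transformed to log2(TPM + 1), keeping the 13662 genes that reached 1 TPM in 3 or more libraries. limma 3.58.1 (R 4.3.3) fitted the 4 genotypes together over the 12 libraries, with a trend in the spread. Two-sided p-values were adjusted over all genes of a contrast (Benjamini-Hochberg), with a threshold of 0.05. On this scale the fold change of a low gene is understated. Departures from the common level came from the same fit after subtracting each library's mean over the core genes. Coding lengths and coding sequences came from GENCODE M21, start regions from RefSeq (GRCm38.p6). The functions were tested on simulated data.

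The members and lists were chosen with earlier results of these data known. Genes named are the most abundant core genes, those with extreme fold changes or departures in each contrast, paralogs, kinases, members with well-known roles, and leading members of each other list. Rpl35, printed as a sequence, and some other members of those lists were chosen after their values were seen. A result on a further gene is not reported here. What the replicate numbers stand for is not labelled, and the main fit does not pair the libraries by them.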

Additional observations from a re-analysis of the deposited data

How the results depend on the processing

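The 74 lower core genes of Klf5KO-labelled over WT libraries stayed between 74 and 75 when each library was left out in turn, and the 0 higher stayed at 0. With the coding length trend subtracted, an alternative chosen after seeing the data, 1 was higher there, and in EgfrKO and Smad4KO libraries 52 and 49 were lower and 2 and 0 higher. Median-of-ratios scaling gave 38 lower and 0 higher in EgfrKO and 0 higher in Smad4KO libraries, and no filter gave 3 higher in EgfrKO libraries. Leaving out each library gave 15 to 30 lower and 3 to 7 higher in EgfrKO and 21 to 33 lower and 3 to 4 higher in Smad4KO libraries. EgfrKO over Smad4KO counts were 9 higher with no filter and 6 with median-of-ratios scaling, 11 lower without small RNA models or without the 20 most abundant other genes, 16 lower with the length trend subtracted, and 9 to 17 higher and 3 to 10 lower without each library. Klf5KO-labelled over Smad4KO libraries had 1 core gene higher with a pseudocount of 0.1, a mean TPM of at least 5, small RNA models or the 20 most abundant genes left out or the length trend subtracted, and 0 to 1 without each library. Members off the common level numbered 15 and 16 in EgfrKO and Smad4KO libraries with no trend in the spread. The median fold change was -0.23, -0.93 and -0.20 in EgfrKO, Klf5KO-labelled and Smad4KO over WT libraries with median-of-ratios scaling, and -0.19, -0.67 and -0.17 with the length trend subtracted. It was -0.12 in EgfrKO libraries without the 20 most abundant other genes, -0.69 in Klf5KO-labelled libraries with the members left out of the total, and -0.13 (without Smad4KO replicate 1) to -0.061 (without Smad4KO replicate 2) in Smad4KO libraries. Without small RNA models the shares were 20.5%, 14.5%, 20.1% and 21.5% in EgfrKO, Klf5KO-labelled, Smad4KO and WT libraries, and without the 20 most abundant other genes 22.9%, 16.1%, 22.4% and 24.5%. Of 168 called gene results examined, 122 kept their call under every alternative, and 4 changed sign: in Klf5KO-labelled libraries Rpl41 (0.18) and the departure of Rpl39 (0.058) with the length trend subtracted, and Rps6ka4 (-0.0060, -0.048) and Pabpc1 (-0.069, -0.075) with median-of-ratios scaling and with that trend subtracted. Rpl41 and Rpl39, with 75 and 153 coding bases, lie at the short end of that trend, where its fit was not tested. The cause was not tested. With the replicate number as a block, 18, 75 and 25 core genes were lower in EgfrKO, Klf5KO-labelled and Smad4KO libraries, against 23, 74 and 28 without it. The correlation of same-numbered libraries' deviations was -0.15 to 0.12. With 3 libraries a group such low values cannot exclude a shared batch, so whether the numbers pair the libraries is not known. Depth is unknown, so what it limits cannot be given.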
